A study of Mus musculus with 24 samples.

Results

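Replication-dependent histone genes are the genes that supply a cell with the bulk of its histone proteins, and they were followed here in mouse embryonic stem cells (mESCs) on soft and stiff hydrogels after 1 of 2 kinase inhibitors had been taken out of the medium. The genes were chosen by symbol alone: every row of the count tables whose symbol begins with Hist1h, Hist2h, Hist3h or Hist4h, without symbols that mark a pseudogene with -ps. This gave 68 of 35022 genes in the table of the PD03 removal experiment, 69 of 48709 in that of the CHIRON removal experiment, and 69 in either. They comprised 6 genes of the linker histone H1, 20 of H2A, 18 of H2B, 12 of H3 and 13 of H4. Of the 69 genes, 56 carry a Hist1 symbol, 10 a Hist2 symbol, 2 a Hist3 symbol and 1 a Hist4 symbol.

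Core histones (H2A, H2B, H3 and H4) form the spool on which DNA is wound, and H1 binds where the DNA enters and leaves it. Replication-dependent histone genes lie in clusters, lack introns and are transcribed mainly in S phase, when new DNA has to be packaged. Their mRNAs are the known exception to polyadenylation: the transcript ends shortly after a conserved stem-loop that is bound by the stem-loop binding protein SLBP, and it is degraded when DNA synthesis stops. mESCs divide quickly and spend much of their cycle in S phase.

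The cells were E14 mESCs (strain label 129m wt) on fibronectin-coated StemBond hydrogels, which are polyacrylamide gels to which matrix proteins are covalently tethered. All cells were first held for 12 h in 2i+LIF, which contains 1 µM PD03 (an inhibitor of the kinase MEK), 3 µM CHIRON (an inhibitor of the kinase GSK3) and the cytokine LIF. In the first experiment PD03 was removed, which left CHIRON and LIF, and in the second CHIRON was removed, which left PD03 and LIF. RNA was taken from soft and from stiff gels at 2 h and 12 h after removal and from cells still in 2i+LIF (0 h), with 2 libraries in each of 6 groups per experiment. The labels do not say whether the libraries of a group came from separate cultures, so p-values measure the spread between these libraries. One library, CHIRON removal stiff 2 h replicate 1, was discarded by the study for too few reads (171333 counts, 87 of them on the histone genes) and was left out here, so that group is 1 library and is assumed to vary like the others. The other 23 libraries held between 16222196 and 31111260 counts, of which 175781 to 410269 fell on the histone genes. All 8 mESC markers examined, among them Pou5f1, Sox2 and Nanog, were detected, with a summed level of 4043.7 to 5586.8 counts-per-million (CPM) per library. The summed level of 6 fibroblast markers was 1.7 to 6.8 CPM, that of 6 primitive endoderm markers 2.3 to 8.4 CPM, and that of 6 trophoblast markers 19.8 to 40.6 CPM, with 0 to 2 fibroblast, 2 to 3 primitive endoderm and 2 to 4 trophoblast markers at a mean of 1 CPM or more, depending on the experiment.

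In the mouse genome (GRCm38), 55 of the Hist1 genes lay within chr13:21715763-23934851, and Hist1h2al lay apart at chr13:51202727-51203065. The Hist2 genes lay within chr3:96219865-96270132, both Hist3 genes within chr11:58948920-58956830, and Hist4h4 at chr6:136801553-136804415. The stem-loop was searched for as the histone mRNA stem-loop consensus of 16 bases in GENCODE M21 transcripts (GRCm38). It was found in the models of 46 of the 69 genes and, for comparison, in 56 of 21901 protein-coding genes (0.26%), 10 of which are outside the list. Of the 23 histone genes without it, 13 have models that end at the stop codon, 2 have no coding model (Hist1h2aj and Hist1h2al, annotated as pseudogenes), and 8 have models with bases after the stop codon. The stem-loops of some members described below are shown because this short element is the known 3′ end of replication-dependent histone mRNAs. Only 22 of the 46 models ended within 60 bases after it, and those of Hist1h1d and Hist1h2ac ran on for 4884 and 2010 bases. Capitals mark the stem-loop, and lower case marks 5 bases on either side, 5′ to 3′.
Hist1h1d: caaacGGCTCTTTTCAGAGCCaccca
Hist1h2ac: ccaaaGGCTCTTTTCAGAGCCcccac
Hist1h2bb: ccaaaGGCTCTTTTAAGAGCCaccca
Hist1h2bj: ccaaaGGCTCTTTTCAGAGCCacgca
Hist1h3e: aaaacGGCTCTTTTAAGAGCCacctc
Hist1h4a: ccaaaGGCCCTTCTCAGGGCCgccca
Hist1h4d: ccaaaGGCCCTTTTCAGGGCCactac
Hist1h4h: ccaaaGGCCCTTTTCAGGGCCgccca
Hist2h4: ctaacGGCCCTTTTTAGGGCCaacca
The 46 genes carried 8 different stem-loops. The commonest, that of Hist1h2bj, stood in 26 genes of the H1, H2A, H2B and H3 classes. The 12 H4 genes with a stem-loop carried 4 sequences, the other 34 genes carried another 4, and none was shared between them.

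The coding parts of these genes are alike enough that reads can fit several genes. When each transcript was split into words of 50 bases, a median of 49.3% of a gene's words also occurred in another member, and the share was over 50% in 32 genes and over 90% in 8. All words of Hist2h2aa2 also occurred in Hist2h2aa1, which was listed at 0 counts in both tables, and Hist1h2ao and Hist1h2ap shared 93.5% and 93.1% of their words. Hist1h1a, Hist1h1b, Hist2h2bb, Hist4h4 and Hist3h2ba shared none. How the authors' counting treated reads that fit several genes is not given in the sources used here, so the split between near-identical members is uncertain, while class sums are less exposed to it.

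Promoters of 250 bases before to 50 bases after the start site were taken from RefSeq (GRCm38.p6) for the 62 histone genes with an entry. A CCAAT box (CCAAT, or ATTGG on the other strand) was present in 53 of the 62 (85.5%), against 41.1% of 27025 genes. It stood in all 6 H1, 18 H2A, 16 H2B and 10 H3 promoters and in 3 of 12 H4 promoters. The octamer (ATTTGCAT, or ATGCAAAT) was found in 14 of 62 (22.6%) against 2.0% of all genes, in 7 H2A and 7 H2B promoters. A TATA box (TATAAA, or TTTATA) was found in 35 of 62 (56.5%) against 15.7%. Both strands were searched, none of these motifs contains another, and a match describes the window only. Some H2A and H2B genes lie head to head, for example Hist1h2ag (minus strand, up to chr13:22042944) and Hist1h2bj (plus strand, from chr13:22043214). Such windows can overlap, so the same site can be counted for both genes. The promoters of Hist1h2bb (H2B) and Hist1h4h (H4) are shown as a pair that differs in these motifs, and both genes fell after PD03 removal and rose after CHIRON removal on both gels, as described below. Both lie on the plus strand, Hist1h2bb at chr13:23746484-23746783 and Hist1h4h at chr13:23530794-23531093, and capitals mark matches to the motifs, of which the second has none.
Hist1h2bb: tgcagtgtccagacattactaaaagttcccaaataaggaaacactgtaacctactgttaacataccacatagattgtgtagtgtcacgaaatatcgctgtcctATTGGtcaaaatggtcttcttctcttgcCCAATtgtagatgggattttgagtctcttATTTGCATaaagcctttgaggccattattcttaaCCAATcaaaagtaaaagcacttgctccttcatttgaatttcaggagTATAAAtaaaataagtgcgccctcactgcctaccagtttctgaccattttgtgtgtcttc
Hist1h4h: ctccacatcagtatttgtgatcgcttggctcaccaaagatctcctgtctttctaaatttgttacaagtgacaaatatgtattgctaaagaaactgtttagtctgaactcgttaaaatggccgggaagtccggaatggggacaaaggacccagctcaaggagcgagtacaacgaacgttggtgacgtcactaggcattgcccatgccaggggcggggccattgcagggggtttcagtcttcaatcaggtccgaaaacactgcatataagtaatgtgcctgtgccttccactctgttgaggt

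The share of each library that fell on all histone genes together went down after PD03 removal and up after CHIRON removal. After PD03 removal on soft gels the share was 15474 and 15739 CPM at 0 h. It was 12993 and 14288 CPM 2 h later and 11103 and 12794 CPM after 12 h. On stiff gels it started at 15347 and 15516 CPM, passed through 14399 and 13586 CPM after 2 h, and reached 12677 and 10836 CPM after 12 h. On both gels the 12 h libraries lay below the 0 h libraries with no overlap. The mean changed by -23.4% on soft (SD 7.7, n = 2) and -23.8% on stiff (SD 8.5, n = 2). Here and below, n is the number of libraries per group. The SD of a percent change was propagated from the SDs of both groups compared. The changes at 2 h were -12.6% on soft (SD 6.0) and -9.3% on stiff (SD 3.8). After CHIRON removal on soft gels the share was 10526 and 10222 CPM at 0 h, then 11507 and 9814 CPM after 2 h, then 12589 and 12382 CPM after 12 h. On stiff gels it was 9978 and 10672 CPM at the start, 12062 CPM in the single 2 h library, and 11921 and 12636 CPM after 12 h. The 12 h libraries lay above the 0 h libraries on both gels, and the mean was 20.4% higher on soft (SD 2.9, n = 2) and 18.9% higher on stiff (SD 7.5, n = 2). At 2 h after CHIRON removal on soft gels the libraries spanned the 0 h values (2.8% higher, SD 11.7). The summed mESC markers also differed at 12 h, at 4585.0 to 4782.7 CPM against 5089.8 to 5342.0 at 0 h after PD03 removal and at 4876.0 to 5107.7 against 4142.5 to 4363.8 after CHIRON removal. The summed trophoblast markers went from 24.0 to 26.1 CPM at 0 h to 36.8 to 40.6 CPM at 12 h after CHIRON removal, where Gata3 and Krt8 were called higher and Cdx2 lower on both gels. The part of these markers in the histone result was not tested. In bulk RNA, fewer cells in S phase and less histone mRNA per cell cannot be told apart.

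All 5 classes moved in the direction of the total, with 12 h libraries that did not overlap those of 0 h in any class on either gel. After PD03 removal H2A and H2B, which pair with each other in the nucleosome, changed by -29.7% (SD 6.3) and -26.7% (SD 7.6) on soft gels and by -26.4% (SD 7.1) and -27.9% (SD 8.1) on stiff gels. H4 changed by -16.7% (SD 9.6) on soft and -20.3% (SD 11.4) on stiff gels. These ranges overlap, but all classes of a 12 h library were high or low together, so the overlap does not decide whether classes differed. On soft gels H2A (H4) went from 3189.5 (3692.8) and 3179 (3746.5) CPM to 2098 (2847) and 2382 (3352) CPM. On stiff gels it went from 3086 (3718) and 3089.5 (3730) CPM to 2429 (3269) and 2119 (2669) CPM. In each 12 h library H2A was lower relative to H4 than in either 0 h library of that gel. This difference was not tested. After CHIRON removal H2B stood further from the rest: its libraries went from 1187 and 1107 CPM to 1629 and 1771 CPM on soft gels and from 1171 and 1226 CPM to 1667 and 1678 CPM on stiff gels, which is 48.2% higher (SD 11.4) and 39.6% higher (SD 4.5). The other classes were 14.1% to 20.2% higher on soft and 13.8% to 19.3% higher on stiff gels. H3, for example, went from 2678 and 2662 CPM to 3076 and 3019 CPM on soft gels, and H1 from 907 and 898 CPM to 1049.7 and 1121 CPM.

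**Figure D1:**
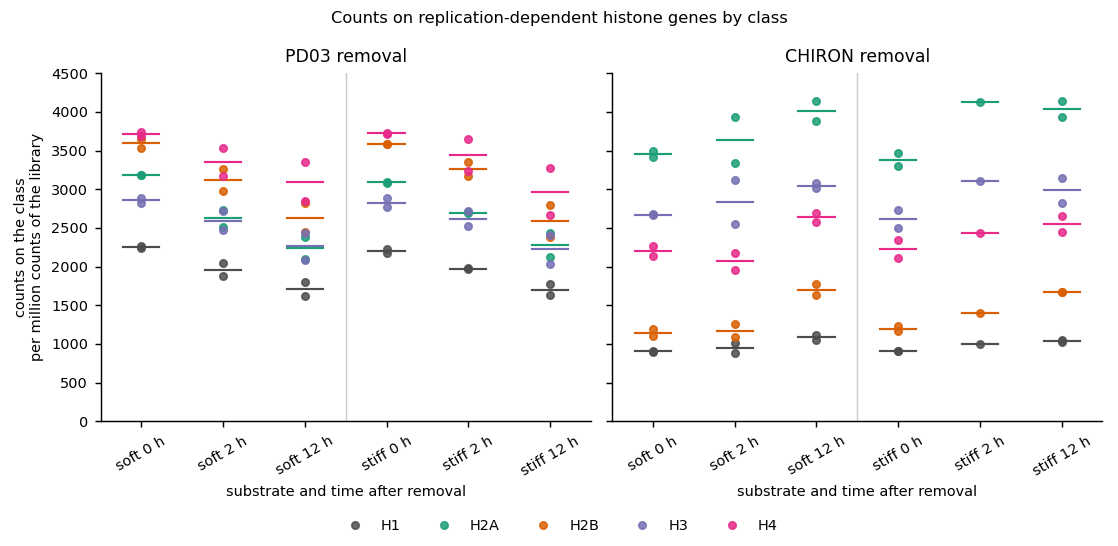
Counts on the histone genes of each class in plain CPM of the library (vertical axis, from 0) by substrate and time, for PD03 removal (left) and CHIRON removal (right). Each point is a library and each short line a group mean, with H2B after CHIRON removal at 1107 to 1226 at 0 h and 1629 to 1771 at 12 h.

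Gene by gene, edgeR's quasi-likelihood test was run on all genes of each experiment (13406 and 14643 tested), and a gene was called when its adjusted p was under 0.05. Of the histone genes 67 were tested in each experiment. Hist2h2aa1 was not tested in either and Hist2h3c1 is listed in the CHIRON table alone at 0 counts. Values per gene are given as CPM after TMM scaling for replicates 1 and 2, and changes are log2 fold changes with their standard errors.

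After 12 h without PD03, 56 of the 67 tested histone genes were lower on soft gels and 56 were lower on stiff gels, and 0 were higher on either (unadjusted p under 0.05 for 62 and 59). Of all genes tested, 14.9% were lower and 14.5% higher on soft gels, and 19.7% were lower and 18.6% higher on stiff gels. The median change of the histone genes was -0.37 on soft and -0.34 on stiff, against medians of all genes close to 0. On both gels 51 genes were called (91.1% of either list), where 83.6% of the 67 tested were called on each gel. Each count depended on 1 library: without soft 12 h replicate 1, 34 genes were lower and 1 higher, and without stiff 12 h replicate 2, 33 were called. DESeq2 called 42 and 41.

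H1 genes were lower in 6 of 6 cases on soft and 4 of 6 on stiff gels. Hist1h1a, which has the highest H1 level per kilobase in this experiment, stood at 1189.5 and 1224 CPM on soft gels at 0 h, 1015 and 1114 CPM after 2 h and 859.5 and 975 CPM after 12 h. On stiff gels it went from 1179.6 and 1206 through 1053 and 1076 to 940.0 and 857. The libraries fell in order of time without overlap on both gels, and the change at 12 h was -0.40 ± 0.051 (adjusted p = 6.62e-07) on soft and -0.41 ± 0.051 (adjusted p = 2.4e-07) on stiff. Hist1h1b changed by -0.44 and -0.46, and Hist1h1d by -0.34 and -0.22. The testis gene Hist1h1t, at 4.29 to 6.65 CPM, passed the test on soft (adjusted p = 0.0415) and not on stiff gels (adjusted p = 0.0529).

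H2A genes were lower in 17 of 19 cases on soft and 16 of 19 on stiff gels, with medians of -0.46 and -0.36. Hist1h2ai went from 338 and 359.8 CPM at 0 h to 219.9 and 245 at 12 h on soft gels and from 344 and 336 to 246 and 213 on stiff gels. All 4 libraries of 12 h lay below all 4 of 0 h, with changes of -0.59 ± 0.057 (adjusted p = 5.37e-09) and -0.57 ± 0.058 (adjusted p = 5.47e-09). Hist1h2ak changed by -0.54 and -0.35, Hist1h2ac by -0.58 and -0.44, and Hist1h2ap by -0.42 and -0.36. The Hist2 genes Hist2h2ac (-0.57 and -0.57), Hist2h2aa2 (-0.51 and -0.53) and Hist2h2ab (-0.40 and -0.29) passed the test on both gels. Hist1h2aa, known from testis, was at 14.2 to 19.2 CPM and was not called (-0.26 and -0.17), nor was Hist3h2a, which stayed under 1.59 CPM.

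H2B genes were lower in 17 of 18 cases on each gel, with medians of -0.43 and -0.41. Hist1h2bb, whose stem-loop and promoter are printed above, showed the lowest fitted change of the list. It stood at 481 and 531 CPM at 0 h, 422 and 461 CPM after 2 h and 298 and 347 CPM after 12 h on soft gels. On stiff gels it went from 521 and 526 through 483 and 428 to 317 and 283. No library of 12 h reached the level of any library of 0 h or 2 h, and the change was -0.65 ± 0.064 (adjusted p = 6.99e-09) on soft and -0.80 ± 0.065 (adjusted p = 5.67e-11) on stiff. Hist1h2bq changed by -0.48 and -0.43, and the testis gene Hist1h2ba, at 103.5 to 160.4 CPM, by -0.37 and -0.39. Outside the Hist1 cluster, Hist2h2bb changed by -0.24 and -0.20 and Hist3h2ba by -0.46 and -0.59, and all 4 values passed the test. The H2B gene that was not called on either gel was Hist2h2be, at 0.29 to 1.42 CPM.

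H3 genes were lower in 9 of 11 cases on soft and 8 of 11 on stiff gels, with medians of -0.28 on both. Hist1h3e went from 473 and 503 to 353 and 416 CPM on soft and from 486 and 508 to 409 and 353 on stiff gels, without overlap (changes of -0.34 and -0.38). Hist2h3c2 passed the test on soft gels (-0.26 ± 0.073, adjusted p = 0.00746) and not on stiff gels (-0.16 ± 0.073, adjusted p = 0.0844), and Hist2h3b passed on neither (-0.16 ± 0.077, adjusted p = 0.111, and -0.15 ± 0.078, adjusted p = 0.133). H4 genes were lower in 7 of 13 cases on soft and 11 of 13 on stiff gels, with medians of -0.22 and -0.28. Hist1h4d, the H4 gene with the most counts, went from 1106 and 1044 to 842 and 942 CPM on soft and from 1121 and 1000.2 to 973 and 816 on stiff gels. Its 12 h libraries lay below those of 0 h on both gels, by -0.27 and -0.24. The H4 calls were those that depended most on the tool: DESeq2 called 1 H4 gene on soft and 0 on stiff gels. Hist1h4a was called on stiff gels (-0.27 ± 0.087, adjusted p = 0.0141) and not on soft gels (-0.21 ± 0.087, adjusted p = 0.0615), and Hist4h4 on both (-0.29 and -0.40), as was Hist1h4h (-0.29 and -0.36), which went from 464 and 499.5 to 358 and 429 CPM on soft gels. Hist2h4 stood at 75.3 and 79.6 CPM at 0 h and 76.6 and 93.3 at 12 h on soft gels, a fitted change above 0 that did not pass the test (0.14 ± 0.077, adjusted p = 0.189).

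**Figure D2:**
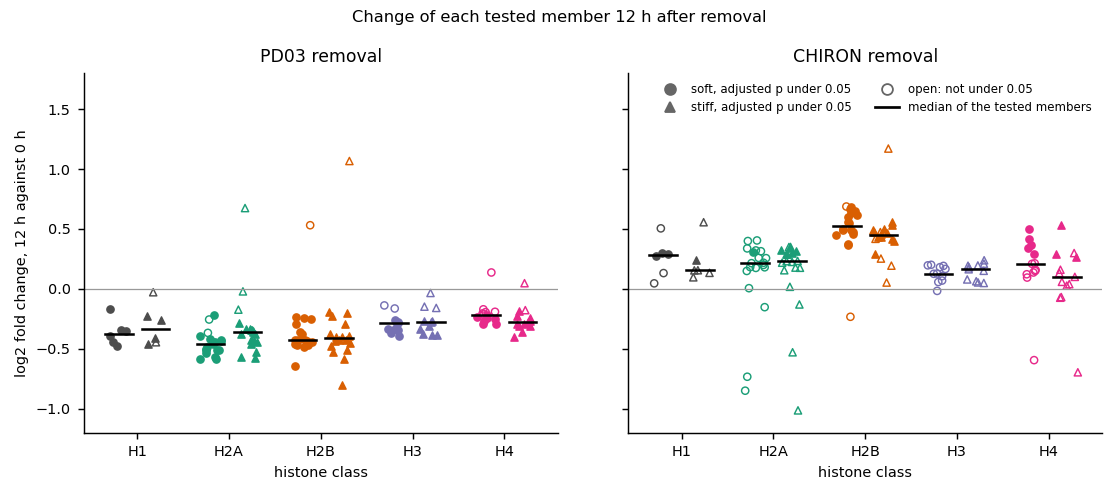
The log2 fold change from 0 h to 12 h (vertical axis) of each of the 67 tested histone genes by class, for PD03 removal (left) and CHIRON removal (right), with circles for soft and triangles for stiff gels, filled where the adjusted p was under 0.05, and lines at the median. Filled points lie below 0 in every class after PD03 removal, and above 0 in every class but H3 after CHIRON removal, with H2B medians of 0.52 and 0.45.

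At 2 h after PD03 removal the change was smaller. On soft gels 11 of 67 histone genes were lower and 0 higher (40 with unadjusted p under 0.05), against 0.649% of all genes lower, and the median change was -0.17. All 11 were H2A genes, of 19 tested: Hist1h2ab, Hist1h2ac, Hist1h2ad, Hist1h2ae, Hist1h2af, Hist1h2ag, Hist1h2ai, Hist1h2ak, Hist1h2ao, Hist1h2ap and Hist2h2ac. Hist1h2ai went from 338 and 359.8 to 272 and 287 CPM (-0.32 ± 0.057, adjusted p = 0.000744), and its 2 h libraries lay below those of 0 h and above those of 12 h. Hist1h2ak changed by -0.25 ± 0.052 (adjusted p = 0.00394) and Hist1h2ac by -0.30 ± 0.063 (adjusted p = 0.00487). Of the other classes, 48 genes were tested and 0 were called by edgeR or DESeq2 (23 with unadjusted p under 0.05), and the medians of H1 (-0.18), H2B (-0.18), H3 (-0.12) and H4 (-0.13) also lay below 0. The class of the called genes depended on the fit: in DESeq2 all 7 called genes were H2A, whereas a fit of these groups alone called 15 H2A, 10 H2B, 4 H1, 3 H4 and 1 H3 gene. The count fell to 1 without soft 2 h replicate 1, to 4 without soft 0 h replicate 1 and to 3 without soft 0 h replicate 2. On stiff gels 1 gene, Hist1h2ai, was lower (-0.21 ± 0.057, adjusted p = 0.0413) and 0 were higher (12 with unadjusted p under 0.05), against 0.88% of all genes lower. That call was lost in DESeq2, with all genes in the fit, and when any library of the stiff 0 h or stiff 2 h group was left out.

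Libraries of a group differed across most of the histone genes at once. At 12 h after PD03 removal on stiff gels all 67 genes were lower in replicate 2 than in replicate 1, by a median of 0.25 on the log2 scale, and on soft gels 65 of 67 were higher in replicate 2, by 0.24. At 2 h after PD03 removal on soft gels 62 of 67 were higher in replicate 2, by 0.16, and at 2 h after CHIRON removal on soft gels 58 of 67 were lower in replicate 2, by 0.30. Members of a library are therefore not independent of each other. The RNA component of RNase MRP, Rmrp, which has no poly(A) tail, differed in the same direction between the 12 h libraries after PD03 removal: it stood at 5246 and 10730.3 CPM at 12 h on soft gels and at 11147 and 8435 on stiff gels. Rpph1, the RNA of RNase P, stood at 4002 and 5089.6 on soft and 5354 and 3916 on stiff gels. At 0 h Rmrp stood at 10285 and 10858 on soft and 8345 and 9435 on stiff gels, so that on stiff gels its 12 h values spanned those of 0 h. Rpph1 stood at 5568 and 5965 on soft and 5219.6 and 5309 on stiff gels at 0 h, and its 12 h values lay below those of 0 h without overlap on soft gels and spanned them on stiff gels. The part of transcripts without a poly(A) tail in the histone result was not tested.

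**Figure D3:**
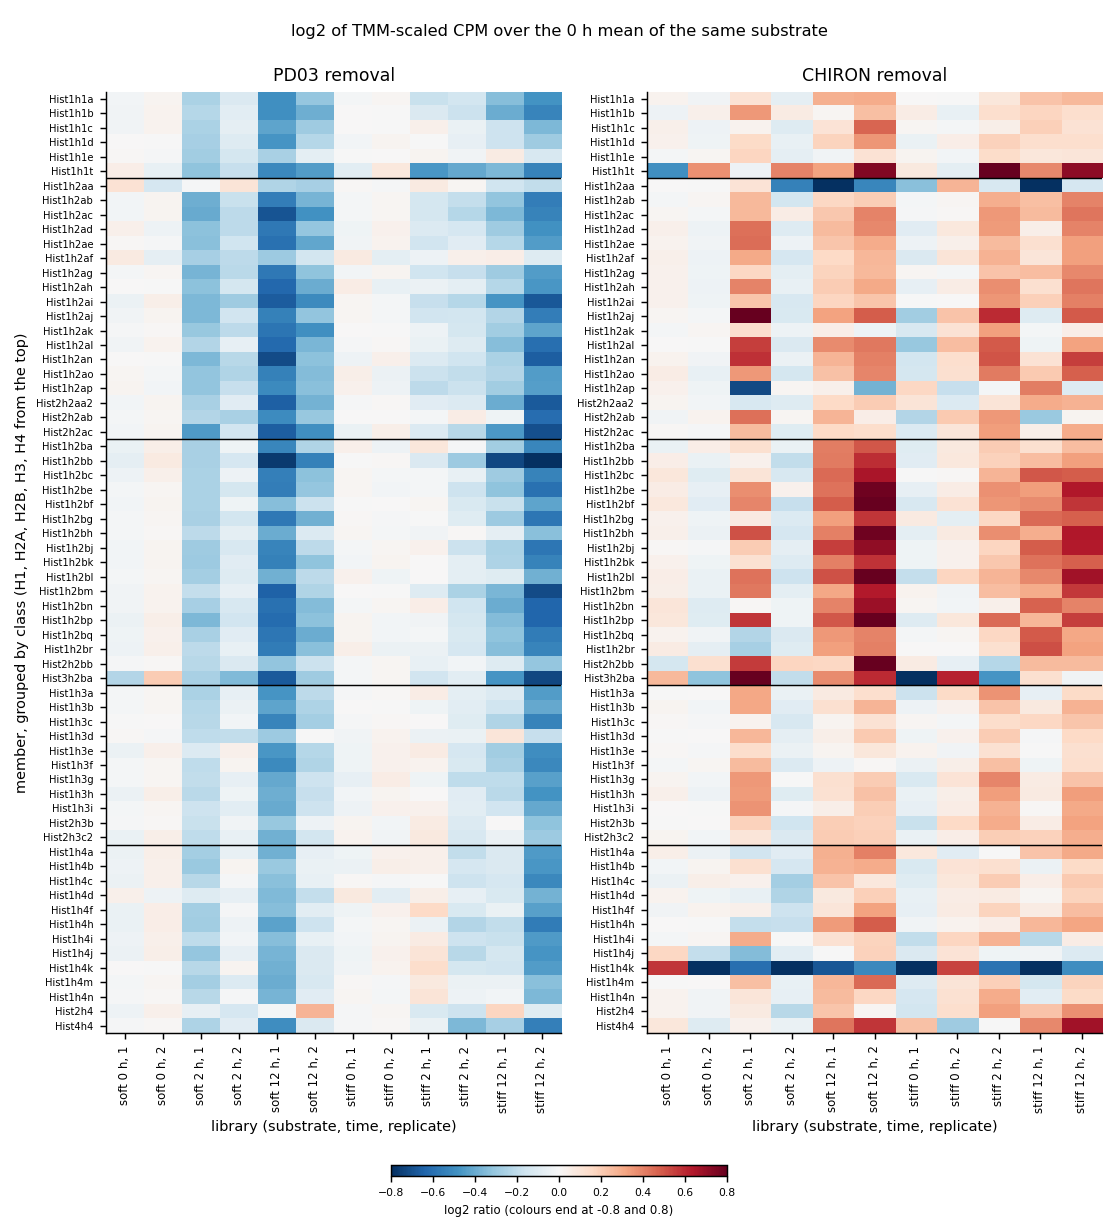
Each row is a histone gene with a mean of at least 1 CPM, each column a library, and the colour is the log2 ratio of its CPM to the 0 h mean of the same substrate, ending at -0.8 and 0.8. Blue fills the 12 h columns after PD03 removal, deepest in soft replicate 1 and stiff replicate 2, and red fills the H2B rows at 12 h after CHIRON removal.

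After 12 h without CHIRON, 24 of 67 histone genes were higher on soft gels and 21 on stiff gels, and 0 were lower on either (36 and 29 with unadjusted p under 0.05). Of all genes tested, 9.12% were higher and 8.59% lower on soft gels, and 8.43% were higher and 8.32% lower on stiff gels. The medians were 0.26 and 0.22, and 17 genes were called on both gels (70.8% of the soft list and 81.0% of the stiff list). Of the 67 tested, 35.8% were called on soft and 31.3% on stiff gels. DESeq2 called 23 and 21. On soft gels 8 genes were higher and 1 lower without replicate 2 of 0 h, and 11 higher and 0 lower without replicate 2 of 12 h. On stiff gels 11 were higher and 1 lower without replicate 1 of 0 h, and 7 higher and 0 lower without replicate 2 of 12 h. The gene that was then lower was Hist1h4k. In a fit blocked by the tube number in the labels, whose meaning the labels do not give, 17 genes were higher on soft and 8 on stiff gels, and no H2A gene on either gel and no H1 gene on stiff gels was among them.

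H2B genes were higher in 15 of 18 cases on soft and 12 of 18 on stiff gels, with medians of 0.52 and 0.45, and made up most of the genes called in this fit. With no filter on low counts, 15 H2B and 10 H2A genes were higher on soft and 14 H2B and 12 H2A genes on stiff gels, and with only the groups compared 15 H2B and 9 H2A on soft and 14 H2B and 6 H2A on stiff gels. Hist1h2bj stood at 76.7 and 75.6 CPM at 0 h, 87.9 and 72.5 CPM after 2 h and 112 and 125 CPM after 12 h on soft gels. On stiff gels it stood at 79.3 and 83.1 at 0 h, 91.5 in the single library at 2 h and 114 and 126 at 12 h. All 4 libraries of 12 h lay above every earlier library, and the change was 0.63 ± 0.094 (adjusted p = 0.000114) on soft and 0.56 ± 0.094 (adjusted p = 0.000378) on stiff. Hist1h2bc went from 148 and 129.6 to 189.7 and 218 CPM on soft and from 141 and 142 to 199.7 and 198 on stiff gels (0.55 and 0.49). Hist1h2bn changed by 0.55 and 0.43, Hist1h2bk by 0.49 and 0.46, Hist1h2bq by 0.37 and 0.40, and Hist1h2bb by 0.50 and 0.29, all past the test. The testis gene Hist1h2ba, at 13.2 to 19.3 CPM, was called on soft gels (0.45 ± 0.12, adjusted p = 0.0174) and not on stiff gels (0.19 ± 0.13, adjusted p = 0.342).

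Of the same RNAs without a poly(A) tail, Rmrp went from 1782 and 1876 to 2346 and 2596 CPM and Rpph1 from 63.1 and 59.1 to 78.4 and 88.5 CPM on soft gels after CHIRON removal, both without overlap. On stiff gels Rmrp went from 2484 and 1628 to 2374 and 2769 and Rpph1 from 71.7 and 65.8 to 67.1 and 94.7, and the times overlapped. Their part in the histone result was not tested.

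In the other classes a smaller share of genes passed in this fit. H1 genes were higher in 3 of 6 cases on soft and 1 of 6 on stiff gels, where Hist1h1a changed by 0.29 ± 0.077 (adjusted p = 0.0129) and 0.24 ± 0.077 (adjusted p = 0.0367). H4 genes were higher in 5 of 13 and 3 of 13 cases. Hist4h4 went from 70.0 and 61.3 to 88.3 and 97.5 CPM on soft gels without overlap, and passed the test on both gels (0.50 and 0.53), and Hist1h4a changed by 0.34 and 0.27. Hist1h4h went from 204 and 203 to 258 and 285 CPM on soft gels, with changes of 0.41 ± 0.075 (adjusted p = 0.000765) and 0.29 ± 0.075 (adjusted p = 0.0112). The H4 gene with the most counts, Hist1h4d, was not called (0.14 and 0.10). H2A genes were higher in 1 of 19 and 5 of 19 cases, with medians of 0.21 and 0.23. Hist1h2ac was called on both gels (0.31 and 0.34), while Hist1h2ak, the H2A gene with the highest level per kilobase, had fitted changes of 0.01 and 0.02 with standard errors of 0.091. Of 11 H3 genes, 0 were called by edgeR on either gel and DESeq2 called 0 on soft and 1 on stiff gels, with medians of 0.13 and 0.16 (1 and 2 with unadjusted p under 0.05). Hist1h3e stood at 455 and 448 CPM at 0 h and 457 and 482 at 12 h on soft gels, and Hist2h3c2 had fitted changes of 0.20 ± 0.085 (adjusted p = 0.129) and 0.24 ± 0.085 (adjusted p = 0.065). The classes were not tested against each other.

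Some genes varied more between libraries of a group than between times. After CHIRON removal Hist1h4k stood at 126.7 and 44.0 CPM on soft gels at 0 h and at 43.4 and 116.2 on stiff gels at 0 h, and 71.5% of its words also occurred in other members. Hist1h2ap ranged from 402 to 864 CPM over the 11 libraries, with 402 and 671 in the pair at 2 h on soft gels. Neither gene was called at 12 h in this experiment with all libraries in the fit. Hist2h2be and Hist3h2a were under 0.65 CPM in every library.

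At 2 h after CHIRON removal 0 histone genes were called by edgeR on either gel and 0 by DESeq2, with 4 at an unadjusted p under 0.05 on soft and 20 on stiff gels. Of all genes, 0.225% were called on soft and 0.102% on stiff gels. The medians were 0.07 on soft and 0.23 on stiff gels, where 58 of 67 fitted changes lay above 0, but the stiff group is the single library named above. Including its discarded partner turned that median to -0.52 and left 0 histone genes called at 12 h on either gel.

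Substrate made no difference that passed the test for any histone gene. For soft against stiff gels in the PD03 experiment, edgeR called 0 of 67 at 0, 2 and 12 h (1, 6 and 0 with unadjusted p under 0.05), against 0.0298%, 0.134% and 0.768% of all genes. In the CHIRON experiment it called 0 at each time (1, 11 and 1), against 0% of all genes at 0 h, 0% at 2 h and 0% at 12 h. DESeq2 also called 0 in all 6. The median differences were 0.01, -0.09 and -0.01 after PD03 removal and 0.01, -0.17 and 0.04 after CHIRON removal, where the -0.17 rests on a single stiff library. At 2 h, 63 of 67 fitted differences lay below 0 after PD03 removal and 62 of 67 after CHIRON removal, but members of a library are not independent. Median standard errors per gene were 0.069 to 0.129, so a small difference between the gels was not detectable. The difference in response between the gels was also tested as an interaction. It was called for 0 histone genes at 2 h and 12 h after PD03 removal (3 and 2 with unadjusted p under 0.05), against 0.00746% and 0% of all genes. After CHIRON removal it was called for 0 (3 and 0), against 0% and 0% of all genes, and DESeq2 called 0 in all 4.

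The experiments have no library in common, and their calls were set side by side. Median standard errors per histone gene at 12 h were 0.07 after PD03 removal and 0.106 and 0.107 after CHIRON removal. A change of the same size was therefore less readily called after CHIRON removal. On soft gels 22 genes were lower 12 h after PD03 removal and higher 12 h after CHIRON removal, which is 39.3% of the 56 lower and 91.7% of the 24 higher genes. Of all 67 tested histone genes on soft gels, 83.6% were lower after PD03 removal and 35.8% higher after CHIRON removal. On stiff gels it was 21 genes, 37.5% of the 56 lower and all of the 21 higher. Of all tested there, 83.6% were lower after PD03 removal and 31.3% higher after CHIRON removal. In all 4 comparisons 16 genes were called: Hist1h1a, the H2A gene Hist1h2ac, the H4 genes Hist1h4h and Hist4h4, and 12 H2B genes. No H3 gene could be among them, because 0 H3 genes were called after CHIRON removal. Calls were also counted by whether a transcript model held the stem-loop. Of 44 tested genes with it, 36 were lower on soft and 37 on stiff gels after PD03 removal, and of 23 without it 20 and 19. After CHIRON removal 17 and 14 of those with it were higher, and 7 and 7 of those without it.

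Levels were compared between genes per kilobase of exon. The models differ in how far they run past the coding part, so these ranks depend on the models. In the PD03 experiment Hist1h1d, with 7425 exon bases, had 479.6 CPM and 64.6 CPM per kilobase. The model of Hist1h4k, with 312 exon bases, ends at the stop codon. In the PD03 experiment the highest were Hist1h1a (1426.9 CPM per kilobase, mean of 12 libraries), Hist1h4k (1295) and Hist2h2bb (1021), and in the CHIRON experiment Hist1h2ak (1709.9, mean of 11 libraries), Hist1h2ap (1322) and Hist2h3b (1058). Of 67 genes, 34 were within 2-fold between the experiments, 9 were over 4-fold higher in the PD03 table and 1, Hist2h4 (333 against 48.6), over 4-fold higher in the CHIRON table. Of the genes higher in the PD03 table Hist2h2bb differed most, at 1021 against 6.45, followed by Hist1h2ba (8.84-fold), Hist1h4k (6.44-fold), Hist1h1a (5.25-fold) and Hist1h4m (5.08-fold). The count tables were made separately, with different sets of genes, and the same starting condition (0 h in 2i+LIF) differed as well: Hist1h1a stood at 1189.5 and 1224 CPM on soft gels in the PD03 table and 181 and 174 in the CHIRON table. Rpph1 stood at 3916 to 6798 CPM in the PD03 table and 59.1 to 94.7 in the CHIRON table. Differences between experiments in cells, library preparation and counting cannot be told apart.

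**Figure D4:**
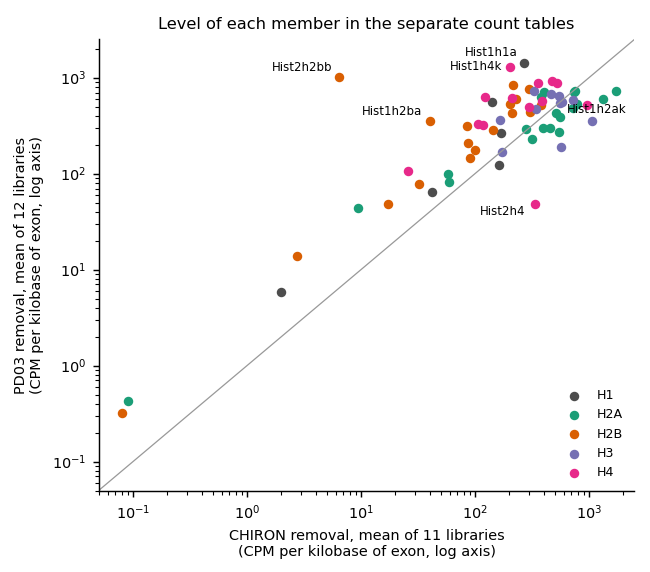
Mean level of each of the 67 tested histone genes in CPM per kilobase of exon, CHIRON removal (horizontal) against PD03 removal (vertical), both axes logarithmic, coloured by class, with the line of equal levels. Hist2h2bb lies far above the line (1021 against 6.45) and Hist2h4 below it (48.6 against 333).

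Genes that make and process histone mRNA moved in both directions. Of 18 tested genes for histone gene transcription and 3′ processing, 5 were higher and 0 lower at 12 h after PD03 removal on soft gels, and 4 were higher and 3 lower on stiff gels (medians -0.01 and -0.01). Of all genes, 14.5% were higher and 14.9% lower on soft gels after PD03 removal, and 18.6% higher and 19.7% lower on stiff gels. After CHIRON removal 1 of the 18 was higher and 2 lower on each gel. Of all genes, 9.12% were then higher and 8.59% lower on soft gels, and 8.43% higher and 8.32% lower on stiff gels. Zfp473, a zinc finger protein of the U7 snRNP pathway that cuts histone pre-mRNA, rose in both experiments, by 0.48 ± 0.08 (adjusted p = 3.29e-05) and 0.48 ± 0.079 (adjusted p = 1.83e-05) after PD03 removal and by 0.52 ± 0.12 (adjusted p = 0.00506) and 0.49 ± 0.12 (adjusted p = 0.00793) after CHIRON removal. Upf1, a helicase used in histone mRNA decay, rose after PD03 removal (0.38 and 0.45) and fell after CHIRON removal (-0.29 and -0.31). Srrt and the scaffold Sympk rose after PD03 removal (0.26 and 0.48 for Srrt). Slbp, whose product binds the stem-loop, stood at 137 and 136 CPM at 0 h and 127 and 130.1 at 12 h on soft gels after PD03 removal, and was not called on either gel (-0.09 ± 0.052, adjusted p = 0.196, and -0.12 ± 0.052, adjusted p = 0.0689). After CHIRON removal it was not called either (-0.18 ± 0.081, adjusted p = 0.151, and -0.18 ± 0.081, adjusted p = 0.146). Npat, the histone gene coactivator, had fitted changes of 0.03 and 0.08 after PD03 removal, and Casp8ap2, Lsm10, Lsm11 and Hinfp were not called either.

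Other lists bear on the cell cycle and on histones outside the clusters. Of 30 genes of DNA replication and S phase, 6 were higher and 4 lower on soft and 6 higher and 6 lower on stiff gels 12 h after PD03 removal, with medians of 0.02 and -0.02, against 14.5% and 18.6% of all genes higher and 14.9% and 19.7% lower. Ccne1, which drives entry into S phase, was higher (0.42 and 0.39), as was the licensing factor Cdc6 (0.20 and 0.29). After CHIRON removal 0 were higher and 2 lower on soft and 1 higher and 3 lower on stiff gels, with Cdt1, also a licensing factor, lower on both (-0.26 and -0.29). Of all genes, 9.12% were higher and 8.59% lower on soft gels after CHIRON removal, and 8.43% higher and 8.32% lower on stiff gels. The counts of the lists that follow are to be read beside these shares of all genes for each experiment. Of 18 genes of G2 and mitosis, 9 and 8 were higher after CHIRON removal and 0 lower, among them the kinase Aurka (0.44 and 0.51). After PD03 removal 4 were higher and 2 lower on soft and 5 higher and 6 lower on stiff gels. Of 11 replication-independent histone genes, whose mRNAs are mostly polyadenylated, 0 were higher and 3 lower on soft and 0 higher and 5 lower on stiff gels after PD03 removal, among them the macroH2A gene H2afy (-0.54 and -0.54) and the H3.3 gene H3f3b (-0.27 and -0.34). After CHIRON removal 5 and 4 were higher and 0 lower, among them the linker histone genes H1f0 (0.73 and 0.75) and H1fx (0.75 and 0.88) and H2afx (0.54 and 0.38), which is 1 of the 10 genes outside the list with a stem-loop in a model. Of 13 histone chaperones, 4 were higher and 1 lower on soft and 5 higher and 1 lower on stiff gels after PD03 removal, and 1 was higher and 3 lower on each gel after CHIRON removal. Chaf1b, of the complex that deposits new H3 and H4 at replication, was lower after CHIRON removal (-0.47 and -0.28).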

How the data were processed

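RNA from 24 samples of E14 mESCs was depleted of ribosomal RNA (Ribozero) and made into Nextflex libraries. Per the labels and the study's methods, the authors trimmed reads (Trim Galore), aligned them to mm10 (GRCm38) with TopHat2 2.1.0 and deposited raw counts per gene from featureCounts 1.5.0, 1 table per experiment. The strand setting and the treatment of reads that fit several genes are not given in the sources used here. For PD03 removal, 12 columns of other samples and 23 lines without a gene were not used.

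Depth was 16222196 to 26442153 counts per library (PD03) and 19393787 to 31111260 (CHIRON), without 1 library that the study discarded. Of 35022 and 48709 genes, 33990 and 48571 matched GENCODE M21 or RefSeq, and protein-coding genes (19270 and 21832) plus all histone members were kept. Counts were filtered with filterByExpr (minimum count 10, minimum total 15), scaled by TMM and tested with edgeR 4.0.16 (glmQLFit, glmQLFTest, R 4.3.3) in 1 model of 6 groups per experiment, with Benjamini-Hochberg adjustment over all genes tested and a threshold of 0.05. CPM values are TMM-scaled, and shares are plain CPM. Scripts were tested on simulated data. Alternatives were DESeq2 1.42.0, its size factors, total counts, no filter, all genes, only the groups compared, replicate blocks and leaving out each library. Members and lists were chosen with earlier results of these data known, so no list was tested as a set.

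Genes named are the 2 highest per class by mean CPM, the 3 called members with the smallest adjusted p per comparison and direction, members from testis or outside the Hist1 cluster, at most 4 called genes per list, and Slbp, Npat, Casp8ap2, Lsm10, Lsm11, Zfp473 and Hinfp in any case. Rmrp, Rpph1, Gata3, Krt8, Cdx2, Hist1h2ao, Hist1h4h, Hist1h4k, Hist1h4m and the other called H2A genes were named after their values were seen.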

Additional observations from a re-analysis of the deposited data

How the results depend on the processing

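DESeq2 size factors in edgeR changed no count of calls by over 1.5 times. At 2 h after PD03 removal on soft gels, 11 calls became 7 in DESeq2, 36 with no filter on low counts and 33 with only the groups compared, and ranged from 1 to 13 when each library was left out. On stiff gels 1 call became 0 in DESeq2, 5 with total counts in place of TMM, 9 with no filter and 0 with all genes, and ranged from 0 to 2. At 12 h after PD03 removal the leave-one-out range was 35 to 62 on soft gels (main 56) and 33 to 59 on stiff gels (main 56). At 12 h after CHIRON removal it was 9 to 24 on soft gels (main 24) and 7 to 16 on stiff gels (main 21), and the stiff count became 33 with no filter. With all 12 libraries it became 0 on both. With no filter, 3 genes were called at 2 h on soft and 7 at 2 h on stiff gels after CHIRON removal, 1 for soft against stiff at 2 h after PD03 removal and 3 after CHIRON removal. With stiff 2 h replicate 1 the share at 2 h after CHIRON removal was -39.1% against 0 h. Its value without that library was 16.8%, and the median change of the members in that comparison went from 0.23 to -0.52. The cause of these shifts was not tested. Called histone genes named by the rules above turned direction under none of these alternatives in the comparisons with 0 h. Direction was not checked in this way for genes outside the histone list or for members named after their values were seen.

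The labels number the libraries, and a replicate block by that number called 12, 1, 56 and 56 genes after PD03 removal (2 h soft, 2 h stiff, 12 h soft, 12 h stiff) and 0, 0, 20 and 14 after CHIRON removal, and 0 in every comparison of the gels and of their responses. Deviations of libraries with the same number correlated at -0.053 to 0.114 (PD03) and -0.11 to 0.07 (CHIRON), so the number was not treated as pairing. A replicate block by the tube number in the CHIRON labels called 17 on soft and 8 on stiff gels at 12 h, and 0 in its other comparisons. The histone genes named by the rules above were also followed singly under all alternatives, in the comparisons with 0 h. Of their values, 2598 kept their side of the threshold, 132 lost it and 60 gained it. Values without an adjusted p were not counted.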
